A study of Mus musculus with 13 samples.

Results

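Potassium channel genes were taken as the rows of the deposited tables whose gene name starts with Kcn and a further lower-case letter. Antisense and pseudogene names (4 in all) were left out, and 91 genes remained, 0.21% of the rows of the deposited count table. A count in at least 1 library was present for 90 of them, among 24775 genes of the whole table. They comprise 28 alpha subunits of voltage-gated (Kv) channels, 10 modifier subunits, 12 auxiliary Kv subunits, 15 inward rectifiers, 13 tandem-pore leak channels, 8 calcium- or sodium-activated channels, and 3 auxiliary subunits of the large-conductance BK channel. The rule also takes 2 genes that encode no channel subunit, the noncoding RNA Kcnq1ot1 and Kcnrg, a regulator.

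Messenger RNA was measured by bulk sequencing in 13 brain hemispheres of 7 wild type C57BL/6 male mice, 12 to 16 weeks old, on day 4 after surgery. Mice with controlled cortical impact (CCI), in which a piston strikes the exposed cortex under anaesthesia, gave 4 ipsilateral and 4 contralateral hemispheres. Sham mice gave 2 ipsilateral hemispheres (animals 4 and 6) and 3 contralateral ones (animals 4, 6 and 8). Every mouse had the same genotype and the tissue was the perfused whole hemisphere, so the injured region was measured together with the rest of its side. Because RH stands in all ipsilateral sample names and LH in all contralateral ones, the side of surgery and right or left cannot be told apart. Library totals ran from 5604856 to 7955076 counts. Chi-square per degree of freedom between replicates was 2.00 to 3.79 for each pair, above sampling noise.

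Potassium channels let potassium leave or enter the cell and so set the resting potential, end the action potential and limit repetitive firing. Kv channels open on depolarisation, and their cytoplasmic and membrane partners set where they sit and how fast they close. Inward rectifiers and tandem-pore channels carry the resting conductance. In the brain, neurons express most of the family, whereas Kcnj10 and Kcnj16 serve astrocytes, which take up potassium released by firing neurons.

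Levels were compared between genes in TPM, which is scaled for gene length. Of the 91 genes, 72 had a mean of at least 1 TPM over the 13 libraries, 47 at least 10, 21 at least 50 and 5 at least 100. Among the highest means were 217 TPM for Kcnab2, a cytoplasmic beta subunit, 148 TPM for Kcnj10, 104 TPM for Kcnip2, and 100.3 TPM for Kcnc1. The library ranges of Kcnip2 (84.1 to 117 TPM) and Kcnc1 (82.8 to 115 TPM) overlapped, and their order was not tested. Within libraries Kcnip2 was the higher, except in CCI contralateral animal 3 (98.9 against 101.7 TPM) and CCI ipsilateral animal 5 (84.1 against 87.8 TPM). The 12 genes of highest mean TPM held 49.6% of the summed TPM of the family. Kcnj1, a kidney channel, had no count in any library. A filter on low counts left 76 of the 91 genes for testing, and none of the 15 others had a mean TPM above 0.754 (Kcnrg).

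**Figure D1:**
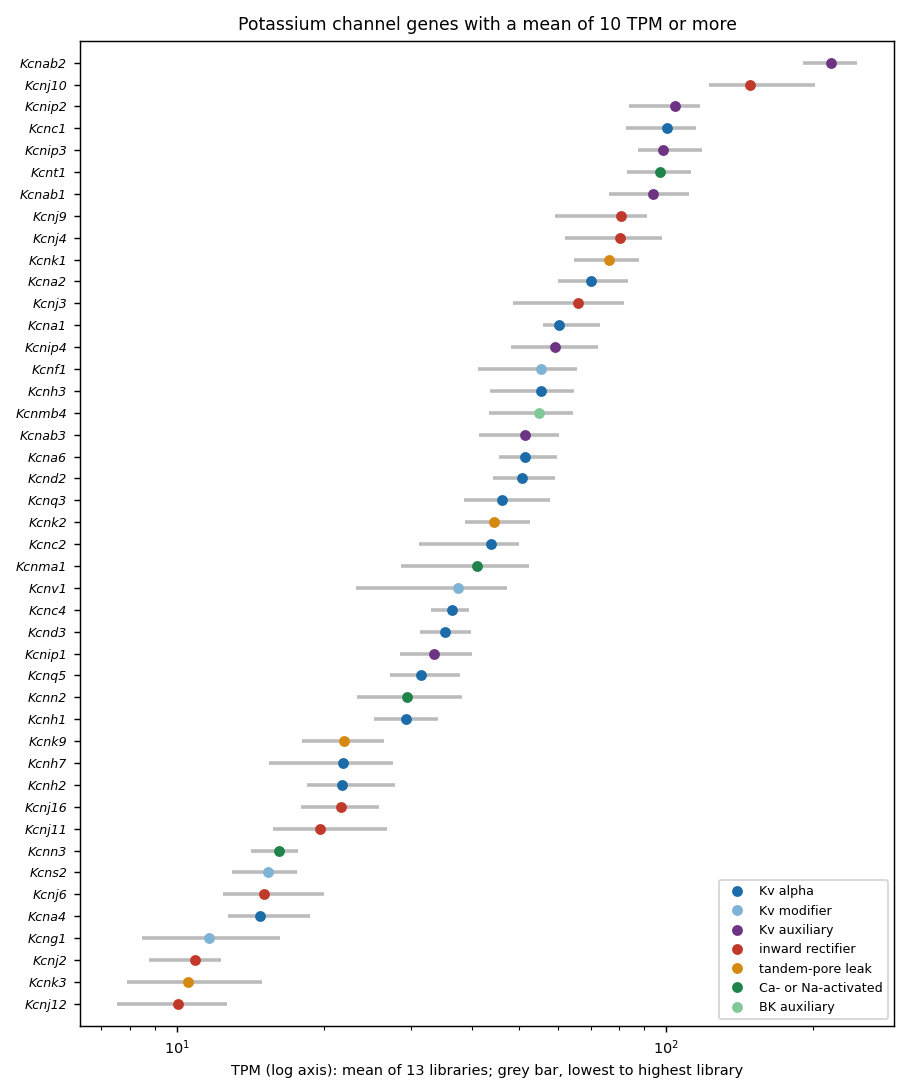
Mean TPM of 44 of the 47 genes with a mean of at least 10 TPM, on a log axis; each point is the mean of 13 libraries, coloured by role, and each grey bar runs from the lowest to the highest library. Kcnab2 stands highest at 217 TPM, and the inward rectifier Kcnj10 has a wide bar, from 122 to 201 TPM.

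The whole family took a smaller part of the RNA in the struck hemisphere. In the 4 CCI ipsilateral libraries 0.499 to 0.523% of counts fell on it, and elsewhere 0.541 to 0.581%. The summed TPM was 2426 to 2592 against 2680 to 2891, again without overlap.

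In the ipsilateral hemisphere, CCI was compared with sham to ask what the impact did on the struck side. Of 76 genes tested, 31 fell and 4 rose (edgeR quasi-likelihood test, Benjamini-Hochberg adjusted p under 0.05 over 14875 genes, 4 against 2 libraries). That is 40.8% falling and 5.26% rising, beside 10.0% falling and 12.5% rising among all genes tested (22.5% called in either direction). The median log2 fold change was -0.26 for the family and 0.00 for all genes. The largest decrease was 2.12-fold (Kcnk4), and the largest rise was 2.50-fold (Kcne1l).

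The 4 CCI ipsilateral libraries all lay below the 9 other libraries for 18 of the 76 genes (23.7%, against 5.38% of all genes tested). Among these were Kcna2, Kcnab1, Kcnab2, Kcnab3, Kcnc1, Kcnc2, Kcng3, Kcnh5, Kcnh7, Kcnip2, Kcnj3, Kcnj9, Kcnk1, Kcnn2, Kcnq3, Kcns1 and Kcnv1. The margin of Kcng3 came from scaling of scarce counts. It had 0.740 CPM from 6 counts in CCI ipsilateral animal 2 and 0.755 CPM from 5 counts in sham ipsilateral animal 6. The 4 CCI ipsilateral libraries lay above all others for Kcnj10 alone (1.32%, against 9.28% of all genes tested). Falls were more frequent among abundant genes. Of the 21 family members with a mean of at least 50 TPM, 14 fell, of 26 at 10 to 50 TPM 12 fell, and of 29 below 10 TPM 5 fell. The shares of all tested genes that fell in those ranges were 23.1%, 8.78% and 2.12%. The family's 66.7%, 46.2% and 17.2% were above them in each range. Rises did not follow abundance in this way, at 10.6%, 9.98% and 17.1% of all tested genes and 4.76%, 3.85% and 6.9% of the family.

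The sham ipsilateral group rests on 2 libraries, and the count fell to 20 (18 down, 2 up) without sham ipsilateral animal 6, where the share of all genes called was 11%. Of the 35 calls, 15 passed in each of the 13 fits that left out a library and under each of the 11 other settings, among them Kcnab1, Kcnab2, Kcnab3, Kcnc1, Kcnc2, Kcnd2, Kcnh3, Kcnip2, Kcnj3, Kcnj9, Kcnj10, Kcnk1, Kcnk4 and Kcnv1.

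Cell type markers moved in the same libraries. In CCI against sham ipsilateral, 5 of 6 pan-neuronal markers fell (median log2 fold change -0.36), 4 of 5 excitatory (-0.41) and 2 of 5 tested inhibitory ones (-0.28). CPM here means counts scaled to library size with TMM factors. The pan-neuronal list summed to 4287 to 4800 CPM where CCI had struck and to 5425 to 6291 CPM in the 9 other libraries. All 6 microglial markers rose (1.20), as did all 6 of activated myeloid cells (5.36), whose summed CPM was 935 to 1573 against 33.0 to 92.9. Astrocyte markers rose in 3 of 6 (0.46), oligodendrocyte markers in 2 of 5 (0.16), oligodendrocyte precursor markers in 2 of 4 (0.33), endothelial markers in 1 of 5 (0.16) and mural-cell markers in 1 of 5 (0.22). Choroid plexus markers changed in 0 of 5. The regional lists fell in 5 of 5 thalamic (-0.53), 2 of 5 striatal (-0.25) and 1 of 3 tested hippocampal markers (-0.43), and in 0 of 2 tested cerebellar ones. The hippocampal list did not move one way. Wfs1, a marker of hippocampal pyramidal cells, did not pass against sham ipsilateral. It did pass as higher on the struck side between the hemispheres of CCI mice (log2 fold change 0.61). Wfs1 had 127, 121, 172 and 152 CPM in CCI ipsilateral libraries and 89.7 to 118 in the 9 others. The summed list was 158 to 205 against 129 to 165 CPM. T-cell markers summed to 1.21 to 3.77 CPM in all 13 libraries, and the only 1 tested did not pass. The tissue therefore carried the defining markers of neurons and glia in all groups. In bulk tissue, fewer cells of a type and less RNA per cell cannot be told apart, and the part of these markers in the channel results was not tested.

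Among alpha subunits of Kv channels, 13 of 24 tested genes fell and none rose (median -0.29). Kcnc1 and Kcnc2, whose channels close quickly and serve fast-spiking neurons, fell. Kcnc1 (ENSMUSG00000058975.6, chromosome 7, 46396497 to 46438704, plus strand, GRCm38) had 180.3, 184, 168 and 178 CPM in CCI ipsilateral animals 1, 2, 3 and 5 and 240.2 and 235 in sham ipsilateral animals 4 and 6. The contralateral libraries had 196, 192, 200.0 and 210.1 CPM after CCI and 216, 217 and 222 after sham. Every CCI ipsilateral library was below every other library. The log2 fold change against sham was -0.42 ± 0.06 (SE; edgeR adjusted p = 3.73e-06), a 1.34-fold decrease.

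Kcnc2 was -0.49 ± 0.08 (adjusted p = 4.82e-05), with 103, 115, 92.9 and 85.5 CPM in CCI ipsilateral and 137 and 142 in sham ipsilateral libraries.

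Among the Kcna genes, whose channels sit on axons, Kcna1 and Kcna2 fell and Kcna3, Kcna4 and Kcna6 did not pass. Kcna2 had 309, 328, 315 and 316 CPM in CCI ipsilateral libraries, 360.4 and 443 in sham ipsilateral, 379, 389, 366 and 367 in CCI contralateral and 393, 407 and 365 in sham contralateral ones. The CCI ipsilateral values were the 4 lowest (-0.34 ± 0.07, edgeR adjusted p = 0.000245). Kcna1 differed in shape: 229, 229, 240.2 and 234 CPM in CCI ipsilateral and 256, 225, 236 and 236 in CCI contralateral libraries overlapped, while sham ipsilateral held 257 and 301. Its call against sham (-0.26 ± 0.07, adjusted p = 0.00349) was therefore not matched by a difference between the hemispheres of CCI mice (-0.03 ± 0.05, adjusted p = 0.745). Without sham ipsilateral animal 6, Kcna1 and Kcna2 no longer passed (adjusted p = 0.284 and 0.111).

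Kcnq3 and Kcnq5, subunits of the channels of the M current, which restrains repeated firing, fell. Kcnq3 had 195, 222, 208 and 195 CPM in CCI ipsilateral and 241 and 300.4 in sham ipsilateral libraries, with 274, 255, 235 and 234 and 229, 252 and 230.3 in the CCI and sham contralateral ones. No other library reached as low as the 4 CCI ipsilateral ones (-0.40 ± 0.08, edgeR adjusted p = 0.000492, but 0.0961 without sham ipsilateral animal 6). Kcnq5 was -0.32 ± 0.08 (adjusted p = 0.00332), and 0.25 without sham ipsilateral animal 6.

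Kcnd2, the main subunit of the somatodendritic A-type current, fell (-0.33 ± 0.07, edgeR adjusted p = 0.000538), from 135 ± 7.40 to 107 ± 6.47 CPM. Its relative Kcnd3 was -0.03 ± 0.07 (adjusted p = 0.811) with overlapping groups. Kcnb2, a delayed rectifier, was -0.47 ± 0.14 (adjusted p = 0.0189), and was lost without sham ipsilateral animal 6 (adjusted p = 0.252).

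Of the ether-à-go-go genes, Kcnh7 (-0.59 ± 0.13, adjusted p = 0.00645, and 0.115 without sham ipsilateral animal 6) and Kcnh3 (-0.42 ± 0.08, adjusted p = 0.000381) fell and 4 others did not pass. Kcnh5 showed its difference between the hemispheres of CCI mice. It had 7.78, 8.51, 8.90 and 7.60 CPM ipsilaterally and 17.3, 16.2, 14.5 and 16.4 contralaterally, a 1.96-fold difference (-0.97 ± 0.15, edgeR adjusted p = 3.22e-05). Sham libraries held 9.30 and 12.8 CPM ipsilaterally and 16.8, 19.3 and 9.96 contralaterally. Their hemisphere effect was also negative (-0.46) and did not pass. The difference between the CCI and sham effects did not pass either. Against sham ipsilateral the CCI ipsilateral value was -0.44 ± 0.20 (edgeR adjusted p = 0.125).

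Modifier subunits, which form no channel of their own and alter channels of the Kcnb kind, fell in 4 of 8 tested (Kcnv1, Kcns1, Kcng1 and Kcnf1) and none rose, with a median of -0.44. Kcnv1 (ENSMUSG00000022342.5, chromosome 15, 45106284 to 45114920, minus strand) had the smallest adjusted p of the family in CCI against sham ipsilateral. CPM was 51.6, 59.6, 56.0 and 46.0 in CCI ipsilateral animals 1, 2, 3 and 5. It was 91.3, 89.5, 79.4 and 87.1 in the contralateral hemispheres of the same animals, 85.2 and 97.2 in sham ipsilateral and 82.7, 83.1 and 75.4 in sham contralateral libraries. Each struck hemisphere was well below the lowest of the 9 other libraries. Kcnv1 fell 1.71-fold against sham (-0.78 ± 0.09, edgeR adjusted p = 1.0e-07) and was 1.63-fold lower than in the other hemisphere of CCI mice (-0.70 ± 0.07, adjusted p = 2.0e-08).

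Kcns1 was -0.56 ± 0.15 against sham (adjusted p = 0.00709, and 0.0746 without sham ipsilateral animal 6), Kcng1 -0.46 ± 0.15 (adjusted p = 0.0267, and 0.277 without sham ipsilateral animal 4 or 0.0811 without CCI ipsilateral animal 5) and Kcnf1 -0.41 ± 0.10 (adjusted p = 0.00394, and 0.115 without sham ipsilateral animal 6). Kcng3 was scarce, at 4, 6, 4 and 4 counts in the CCI ipsilateral and 13, 14, 16 and 7 in the CCI contralateral libraries. It differed between those hemispheres 3.10-fold (-1.63 ± 0.38, edgeR adjusted p = 0.00186) and did not pass against sham (-0.83 ± 0.52, adjusted p = 0.281), where the counts were 8 and 5.

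Auxiliary Kv subunits included the most abundant genes of the family, and 4 of 10 tested fell while 1 rose. All 3 Kcnab genes, cytoplasmic beta subunits that attach to Kcna channels, fell. Kcnab1 (ENSMUSG00000027827.14, chromosome 3, 65109384 to 65378223, plus strand) had 109, 119, 108 and 111 CPM in CCI ipsilateral, 153, 142, 154 and 141 in CCI contralateral, 163 and 158 in sham ipsilateral and 135, 146 and 139.9 in sham contralateral libraries. The 4 struck hemispheres were the lowest of the 13 libraries and the decrease was 1.43-fold (-0.52 ± 0.06, edgeR adjusted p = 5.79e-07).

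Kcnab2 had 315, 307, 312 and 313 CPM in CCI ipsilateral libraries, closely grouped, against 408 and 386 in sham ipsilateral ones (-0.35 ± 0.06, adjusted p = 4.68e-05). Its contralateral libraries held 378, 369, 386 and 373 after CCI and 381, 349 and 402 after sham. Kcnab3 had 46.1, 49.8, 43.1 and 43.4 CPM in CCI ipsilateral and 59.2 and 59.8 in sham ipsilateral libraries (-0.38 ± 0.08, adjusted p = 0.000718). In the contralateral hemispheres Kcnab3 was 67.2, 61.2, 62.6 and 65.7 after CCI and 55.7, 57.8 and 52.9 after sham, and the CCI values were the higher ones without overlap, although that difference did not pass (0.21 ± 0.07, adjusted p = 0.482).

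The Kcnip genes encode calcium-binding partners of Kcnd channels. Kcnip2 fell (-0.40 ± 0.07, edgeR adjusted p = 5.17e-05), from 132 and 135 CPM in sham ipsilateral to 105, 109, 95.8 and 94.6 in CCI ipsilateral libraries. Kcnip3, of similar abundance in TPM, was 0.01 ± 0.08 (adjusted p = 0.957) with overlapping groups. Kcnip4 was -0.32 ± 0.12 against sham (adjusted p = 0.0554) and -0.31 ± 0.10 between the hemispheres of CCI mice (adjusted p = 0.0237), where it no longer passed with the animal as a block (adjusted p = 0.0526).

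Kcne1l (ENSMUSG00000090122.3, chromosome X, 142304752 to 142306294, minus strand), a small membrane subunit that modulates Kv channels, was the rising member of this class. CPM was 6.04, 10.4, 10.3 and 14.5 in CCI ipsilateral animals 1, 2, 3 and 5, 3.10, 5.31, 5.78 and 7.48 in their contralateral hemispheres, 4.82 and 3.47 in sham ipsilateral and 4.01, 4.47 and 6.10 in sham contralateral libraries. Within each of the 4 CCI mice the struck hemisphere was the higher one, but animal 1 overlapped the contralateral libraries. The rise was 2.50-fold against sham (1.32 ± 0.34, edgeR adjusted p = 0.00906, and 0.163 without sham ipsilateral animal 6). Kcne2, expressed in choroid plexus, did not pass (0.14 ± 0.30, adjusted p = 0.802).

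**Figure D2:**
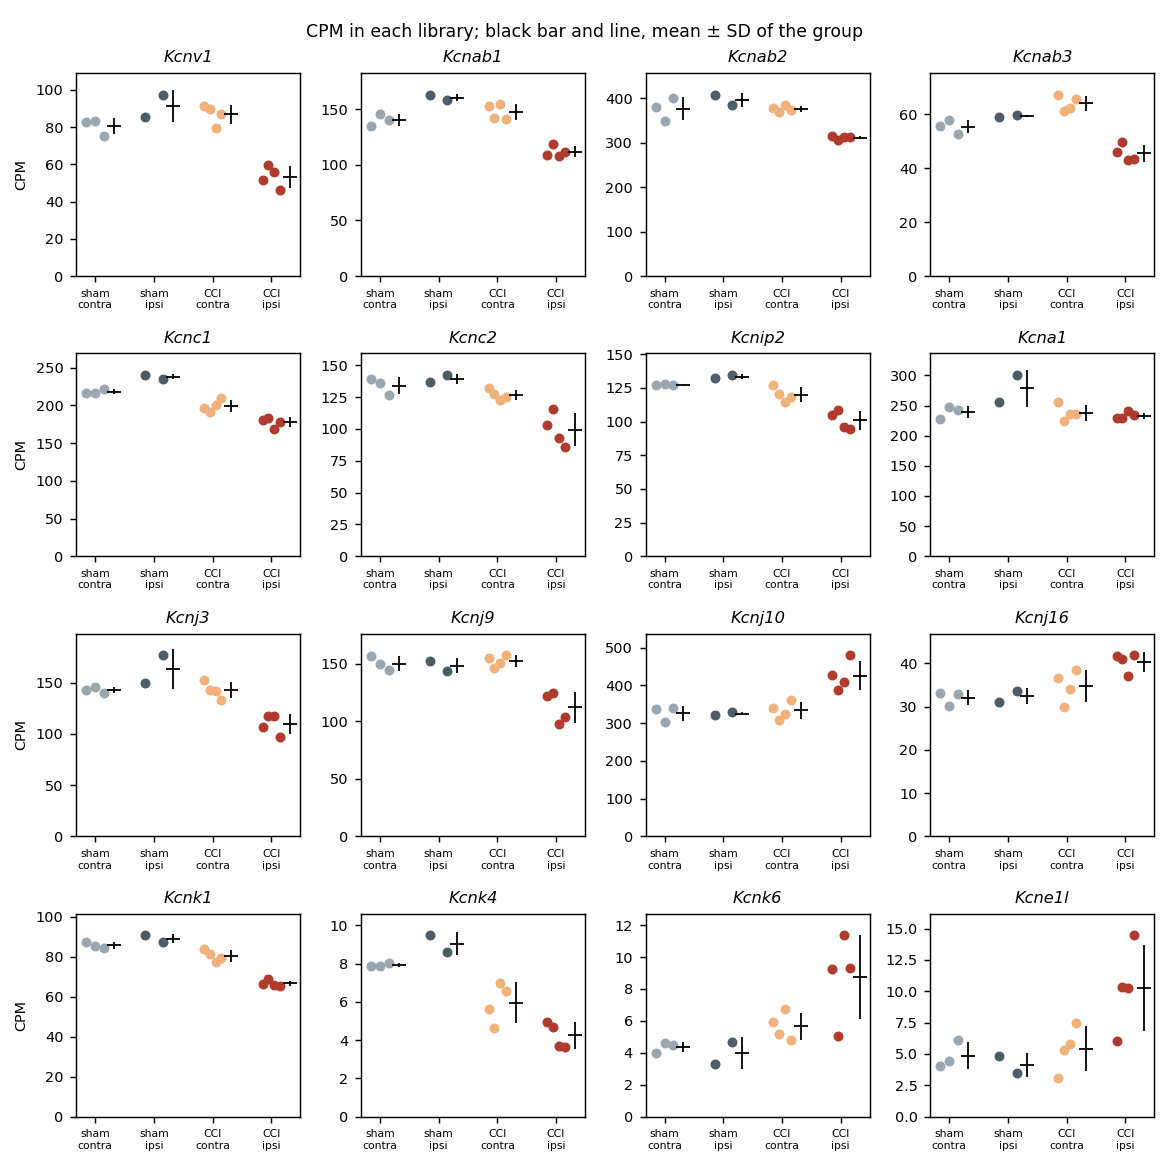
CPM of 16 potassium channel genes in each of the 13 libraries, grouped as sham contralateral (n = 3), sham ipsilateral (n = 2), CCI contralateral (n = 4) and CCI ipsilateral (n = 4), with the mean ± SD beside each group and axes from 0. The CCI ipsilateral points lie below all others for Kcnv1, the Kcnab genes, Kcnc1, Kcnc2, Kcnip2, Kcnj3, Kcnj9 and Kcnk1 and above them for Kcnj10, while for Kcna1 they overlap both contralateral groups.

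Inward rectifiers moved in both directions, with 3 of 13 tested genes falling and 2 rising. The neighbours Kcnj10 and Kcnj9 on chromosome 1 are transcribed away from each other, with starts 11892 bases apart, and went opposite ways. Their upstream sequences are shown because the pair lies so close, together with that of Kcnj3, which forms G-protein-gated channels with Kcnj9. Each line gives the 250 bases before the start in RefSeq (GRCm38.p6), with capitals marking the CCAAT box, the TATAAA box and the STAT motif TTCNNNGAA, each on either strand.
Kcnj10 promoter, chr1:172340960-172341209, plus strand: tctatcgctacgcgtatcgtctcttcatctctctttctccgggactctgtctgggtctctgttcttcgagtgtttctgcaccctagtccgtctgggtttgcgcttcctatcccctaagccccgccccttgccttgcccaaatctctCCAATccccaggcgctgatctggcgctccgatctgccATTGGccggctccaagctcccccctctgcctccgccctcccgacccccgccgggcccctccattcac
Kcnj9 promoter, chr1:172329323-172329572, minus strand: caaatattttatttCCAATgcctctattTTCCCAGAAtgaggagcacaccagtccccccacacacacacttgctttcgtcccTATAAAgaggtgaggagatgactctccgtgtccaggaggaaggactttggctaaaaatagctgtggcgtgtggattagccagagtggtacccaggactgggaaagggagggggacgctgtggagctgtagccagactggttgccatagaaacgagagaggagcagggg
Kcnj3 promoter, chr2:55435720-55435969, plus strand: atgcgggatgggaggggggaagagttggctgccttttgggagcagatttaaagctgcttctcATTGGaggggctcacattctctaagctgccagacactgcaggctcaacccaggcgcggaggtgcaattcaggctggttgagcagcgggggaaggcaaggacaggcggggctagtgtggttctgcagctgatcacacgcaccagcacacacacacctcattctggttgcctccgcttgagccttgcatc
The Kcnj10 sequence holds CCAAT letters 104 and 67 bases before the start, and the Kcnj3 sequence 188 bases before it. The Kcnj9 sequence holds them at 236, the STAT letters at 222 and TATAAA at 168 bases. CCAAT occurs in 33.8% of 32851 promoters of this length, TATAAA in 12.4% and TTCNNNGAA in 7.02%, and the marked letters do not overlap. The AP-1 motif TGANTCA (6.75% of promoters) and the cyclic AMP motif TGACGTCA (1.55%) were searched as well, and neither is in these 3 windows. RefSeq promoters were matched for 66 of the 91 genes, some with more than 1 promoter. Counted by promoter, like the shares above, 27 of their 91 promoters hold CCAAT, 3 TATAAA and 7 TTCNNNGAA. Counted by gene, 24 of the 66 hold CCAAT in at least 1 promoter, 3 TATAAA and 7 TTCNNNGAA.

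Kcnj10 (ENSMUSG00000044708.5, chromosome 1, 172341210 to 172374085, plus strand) encodes the main potassium uptake channel of astrocytes. It had 427, 389, 409 and 480.1 CPM in CCI ipsilateral animals 1, 2, 3 and 5 and 339, 309.5, 324 and 363 in their contralateral hemispheres. Sham libraries held 322 and 329 ipsilaterally and 336, 303 and 339 contralaterally. All 4 struck hemispheres were above the 9 others, 1.31-fold over sham (0.39 ± 0.07, edgeR adjusted p = 0.00026) and 1.28-fold over the other hemisphere (0.35 ± 0.06, adjusted p = 5.53e-05). Kcnj16, which joins Kcnj10 in astrocytic channels, had 41.7, 41.1, 37.0 and 41.9 against 31.2 and 33.7 CPM in sham ipsilateral libraries, without overlap. Contralateral libraries held 36.6, 29.9, 34.1 and 38.5 CPM after CCI, which overlapped the struck side, and 33.1, 30.1 and 33.0 after sham. With DESeq2, Kcnj16 did not pass against sham ipsilateral (adjusted p = 0.0648). Its rise was 1.25-fold (0.32 ± 0.10, adjusted p = 0.0223) and did not pass without sham ipsilateral animal 4 (0.184) or 6 (0.0783), or without CCI ipsilateral animal 5 (0.0551).

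Beside these, astrocyte markers were uneven. Gfap, the intermediate filament of reactive astrocytes, was 8.05-fold higher (3.01 ± 0.31, edgeR adjusted p = 9.92e-05), and the water channel Aqp4, which shares the endfeet with Kcnj10, 2.47-fold (1.31 ± 0.13, adjusted p = 2.24e-05). The glutamate transporter Slc1a2 was -0.02 ± 0.07 (adjusted p = 0.882) and Slc1a3 0.16 ± 0.06 (adjusted p = 0.0599). The summed CPM of the 6 astrocyte markers was 6061 to 7696 in CCI ipsilateral libraries and 4560 to 5384 in the others. The part of astrocyte RNA in the Kcnj10 and Kcnj16 results was not tested.

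The G-protein-gated subunits Kcnj3 and Kcnj9, which carry slow inhibitory currents in neurons, fell. Kcnj3 (ENSMUSG00000026824.9, chromosome 2, 55435970 to 55598145, plus strand) had 107, 117, 118 and 96.9 CPM in CCI ipsilateral, 152, 143, 142 and 133 in CCI contralateral, 149 and 177 in sham ipsilateral and 143, 146 and 139 in sham contralateral libraries. The struck hemispheres were the 4 lowest, 1.49-fold under sham (-0.57 ± 0.08, edgeR adjusted p = 1.75e-06). A gene on the opposite strand covers 31.1% of the exon bases of Kcnj3, so some of its reads may belong to that gene. Kcnj9 (ENSMUSG00000038026.10, chromosome 1, 172320501 to 172329318, minus strand) had 122, 125, 97.4 and 104 CPM in CCI ipsilateral and 153 and 144 in sham ipsilateral libraries, 1.32-fold lower (-0.40 ± 0.08, adjusted p = 0.000317). Its contralateral values, 155, 146, 151 and 158 after CCI and 157, 150.0 and 144 after sham, overlapped each other. Kcnj6, another G-protein-gated subunit, was -0.19 ± 0.14 against sham (adjusted p = 0.371) and -0.33 ± 0.11 between the hemispheres of CCI mice (adjusted p = 0.0338).

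Kcnj11, the pore of the ATP-sensitive channel, had 14.1 and 14.2 CPM in sham ipsilateral libraries and 8.18, 10.9, 10.3 and 8.72 in CCI ipsilateral ones (-0.57 ± 0.15, edgeR adjusted p = 0.00676). The contralateral libraries held 10.0, 9.08, 9.94 and 9.44 after CCI and 9.50, 11.1 and 8.92 after sham, so the sham ipsilateral pair stood above the 11 others. The call was lost without sham ipsilateral animal 6 (adjusted p = 0.0755) and with both sham groups as reference (0.0605). Kcnj8, its relative in pericytes and vascular muscle, was -0.12 ± 0.28 (adjusted p = 0.814). Kcnj13, expressed in choroid plexus, was -0.19 ± 0.24 (adjusted p = 0.643), and 49.1% of its exon bases lie under Gigyf2 on the opposite strand. Kcnj4, a strong rectifier of forebrain neurons, was -0.16 ± 0.09 against sham (adjusted p = 0.222) and -0.29 ± 0.07 between the hemispheres of CCI mice (adjusted p = 0.00351).

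Tandem-pore leak channels included both the largest decrease and the second largest rise of the called genes, with 5 of 10 tested falling and 1 rising. Kcnk4 (ENSMUSG00000024957.8, chromosome 19, 6923966 to 6934515, minus strand) encodes a channel opened by membrane stretch and lipids. It had 4.96, 4.69, 3.70 and 3.61 CPM in CCI ipsilateral and 9.47 and 8.60 in sham ipsilateral libraries, a 2.12-fold decrease (-1.09 ± 0.21, edgeR adjusted p = 0.000232). The contralateral hemispheres of CCI mice, at 5.60, 4.61, 6.98 and 6.59 CPM, lay below those of sham mice, at 7.87, 7.86 and 8.03, and this did not pass (-0.42 ± 0.18, adjusted p = 0.655). Between the hemispheres of CCI mice the groups overlapped (-0.48 ± 0.18, adjusted p = 0.0545). Its exons share 13.1% of their bases with Catsperz on the same strand.

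Kcnk1, a weak inward rectifier of this class, was tightly grouped at 66.5, 68.7, 66.0 and 65.7 CPM in CCI ipsilateral libraries. It held 84.1, 81.4, 77.2 and 79.2 in CCI contralateral, 90.8 and 87.4 in sham ipsilateral and 87.6, 85.6 and 84.3 in sham contralateral libraries. The struck hemispheres were the 4 lowest (-0.42 ± 0.07, edgeR adjusted p = 3.03e-05). Kcnk2, stretch-sensitive like Kcnk4, was -0.26 ± 0.09 (adjusted p = 0.0465). It was lost in 5 of the 13 fits that left out a library, with an adjusted p of 0.482 without sham ipsilateral animal 6.

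Kcnk3, which closes on acidification, had 17.7, 15.9, 15.3 and 15.3 CPM in CCI ipsilateral and 15.3, 15.8, 18.4 and 13.7 in CCI contralateral libraries, both below the sham libraries at 25.5 and 19.6 and 20.3, 21.3 and 19.0. Its call against sham (-0.48 ± 0.13, edgeR adjusted p = 0.00646) was lost without sham ipsilateral animal 4 (0.249). Kcnk12 was scarce, at 12, 24, 15 and 15 counts in CCI ipsilateral and 30 and 24 in sham ipsilateral libraries (-1.03 ± 0.32, adjusted p = 0.0172, and 0.233 without animal 4). Neither passed between the hemispheres of CCI mice (Kcnk3 0.01, edgeR adjusted p = 0.95, and Kcnk12 -0.20, adjusted p = 0.675).

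Kcnk6 (ENSMUSG00000046410.9, chromosome 7, 29221926 to 29232515, minus strand), described in mouse macrophages as a potassium exit route, rose. CPM was 9.26, 5.06, 11.4 and 9.34 in CCI ipsilateral animals 1, 2, 3 and 5 and 5.90, 5.17, 6.72 and 4.81 in their contralateral hemispheres. Sham libraries held 3.27 and 4.68 ipsilaterally and 4.01, 4.63 and 4.46 contralaterally. Animal 2 was the exception, with a struck hemisphere no higher than the contralateral one. The rise against sham was 2.17-fold (1.12 ± 0.27, edgeR adjusted p = 0.00238, and 0.0706 without sham ipsilateral animal 4). Kcnk13, a channel of resting microglia in mouse, was 0.25 ± 0.19 (adjusted p = 0.402) while the 6 microglial markers rose. The part of myeloid cell RNA in the Kcnk6 result was not tested.

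Calcium- and sodium-activated channels fell in 2 of 7 tested genes. Kcnma1, the pore of the BK channel, had 62.9, 71.8, 78.4 and 57.6 CPM in CCI ipsilateral and 76.8 and 91.3 in sham ipsilateral libraries, which overlapped (-0.32 ± 0.11, edgeR adjusted p = 0.0393). That call was lost in 6 of the 13 fits that left out a library, with an adjusted p of 0.465 without sham ipsilateral animal 6. Against the other hemisphere of CCI mice, at 92.5, 107, 95.6 and 94.7 CPM, the struck side was lower without overlap (-0.53 ± 0.09, adjusted p = 0.000139). The neuronal BK partner Kcnmb4 followed in that comparison (-0.34 ± 0.10, adjusted p = 0.00944) and not against sham (-0.25 ± 0.12, adjusted p = 0.145). Antisense genes cover 31.5% of its exon bases.

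Of the small-conductance genes, which respond to calcium after a spike, Kcnn1 fell against sham (-0.41 ± 0.14, edgeR adjusted p = 0.0331) and was lost in 4 of 13 fits that left out a library. Kcnn2 was -0.29 ± 0.11 (adjusted p = 0.0642) and lower than in the other hemisphere of CCI mice (-0.32 ± 0.09, adjusted p = 0.0118, and 0.0768 without CCI contralateral animal 3). Kcnt1, the sodium-activated channel and 1 of the 12 most abundant genes, was 0.11 ± 0.07 (adjusted p = 0.3).

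Kcnn4, the intermediate-conductance channel of lymphocytes and microglia, was near the limit of detection and not tested, with 5, 9, 3 and 6 counts in CCI ipsilateral libraries, 4, 7, 1 and 0 in CCI contralateral, 0 and 1 in sham ipsilateral and 2, 3 and 1 in sham contralateral ones. Kcna3, a channel of T cells and microglia, had 7.11, 8.39, 8.35 and 8.47 CPM in CCI ipsilateral and 7.75 and 6.19 in sham ipsilateral libraries (0.22 ± 0.19, edgeR adjusted p = 0.472), which overlapped.

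The contralateral hemisphere of CCI mice was compared with that of sham mice to ask whether the unstruck side differed. None of the 76 genes passed edgeR's test, beside 0.0941% of all genes called (0.0807% higher, 0.0134% lower). At an unadjusted p under 0.05 there were 8 (10.5%, beside 6.86% of all genes), and DESeq2 and limma voom also called 0. The median log2 fold change was -0.00. The largest estimate among the genes described above was for Kcnj13 (-0.58 ± 0.21, adjusted p = 0.512), with 5.01, 4.47, 3.90 and 3.74 against 5.79, 6.78 and 6.69 CPM, which did not overlap.

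Ipsilateral and contralateral hemispheres were then compared within each kind of mouse. In sham mice none of the 76 genes passed, beside 0.00672% of all genes, and 10 had an unadjusted p under 0.05 (13.2%, beside 6.1% of all genes). DESeq2 and limma voom called 0. The median was 0.05. In CCI mice 29 genes were lower and 4 higher in the struck hemisphere, 43.4% beside 21.7% of all genes, with a median of -0.17. By direction this was 38.2% beside 8.9% lower, and 5.26% beside 12.8% higher. The lower genes comprised 9 Kv alpha subunits, 5 modifiers, 5 auxiliary subunits, 4 inward rectifiers, 3 calcium- or sodium-activated channels, Kcnk1, Kcnmb4 and Kcnq1ot1. The higher ones were Kcnj10, Kcnj16, Kcnk6 and Kcne1l. Kcns3, a modifier, was -0.50 ± 0.17 (adjusted p = 0.0287) and Kcnt2, a sodium-activated channel, -0.63 ± 0.23 (adjusted p = 0.0435), and they were lost in 4 and 6 of the 13 fits that left out a library. Kcnq1ot1, a noncoding RNA transcribed within Kcnq1 in the opposite direction, was -0.32 ± 0.11 (adjusted p = 0.0434) and was lost in 4 of 13. Kcnj16 and Kcnk6 were each lost in 5 of 13, whereas Kcnj10 passed in all. Of the 33 calls, 16 passed in every such fit and under the other settings tried. With the animal as a block, 36 genes (beside 25.5% of all genes) were called: Kcnip4 was lost and Kcna4 (adjusted p = 0.0224), Kcnd2 (0.0316), Kcnk2 (0.0444) and Kcnq5 (0.0196) were gained. This comparison and that of CCI with sham share the 4 CCI ipsilateral libraries, so their calls are not independent.

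Whether the hemisphere effect differed between CCI and sham mice was tested as an interaction. This is a signed difference, which can pass without a wider gap in CCI mice. For the called gene Kcnd2 the hemisphere effects were -0.14 in CCI and 0.18 in sham mice. The interaction was past the threshold for 17 of 76 genes (22.4%, beside 7.83% of all genes), 16 in the negative direction (21.1%, beside 2.99%) and 1 in the positive (1.32%, beside 4.84%). The largest called difference was that of Kcnv1, with hemisphere effects of -0.70 in CCI and 0.18 in sham mice and a difference of -0.89 ± 0.12 (edgeR adjusted p = 1.33e-05). Kcnab1 differed by -0.60 ± 0.09 (adjusted p = 5.64e-05), Kcnab3 by -0.59 ± 0.11 (adjusted p = 0.000829) and Kcnj3 by -0.57 ± 0.10 (adjusted p = 0.0007). These 4 genes passed under every setting and left-out library tried. Kcnj10 was the positive one (0.36 ± 0.10, adjusted p = 0.0219) and was lost in 5 of the 13 fits that left out a library, with adjusted p values of 0.0506 to 0.105. Without sham ipsilateral animal 6, 10 of the 17 did not pass: Kcna2 (adjusted p = 0.5), Kcnq5 (0.43), Kcnh7 (0.206), Kcnd2 (0.203), Kcnip2 (0.135), Kcnq3 (0.133), Kcnc2 (0.127), Kcnj10 (0.105), Kcnc1 (0.072) and Kcnk1 (0.0692). The 3 other genes that rose against sham did not pass here: Kcnk6 at 0.74 ± 0.36, Kcnj16 at 0.21 ± 0.14 and Kcne1l at 1.18 ± 0.47. With the animal as a block Kcna1 (adjusted p = 0.0286) and Kcnma1 (0.0287) were added.

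**Figure D3:**
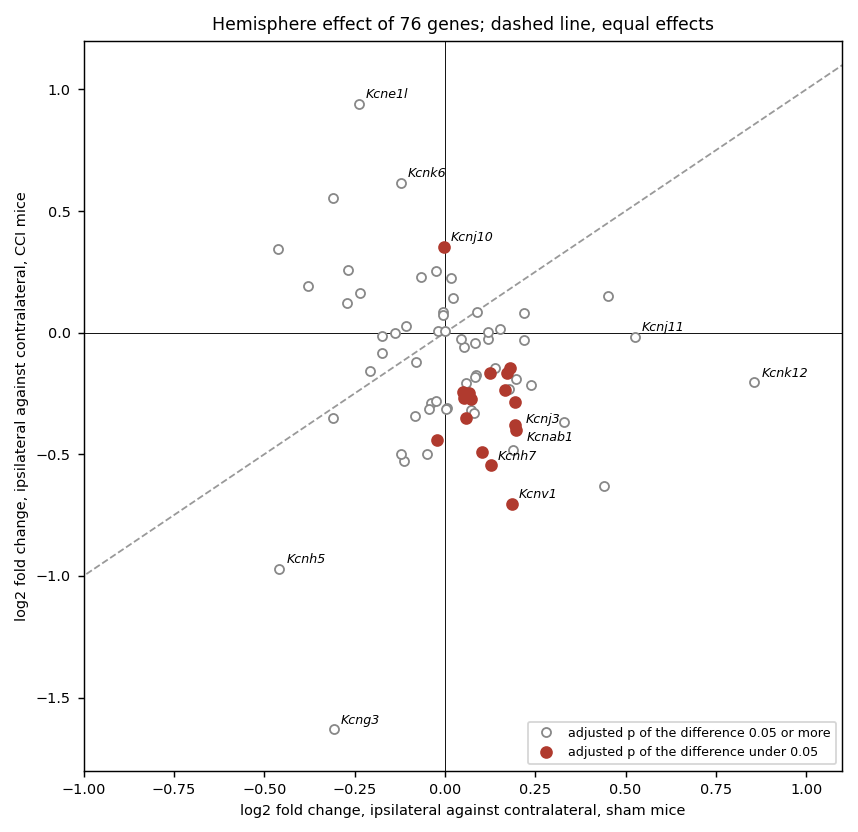
Log2 fold change of ipsilateral against contralateral hemispheres in sham mice (horizontal axis) and in CCI mice (vertical axis) for the 76 genes tested, with a dashed line where both are equal; filled points passed the interaction test. Of the 17 filled points, 16 lie below the line and Kcnj10 above it, while Kcnj11 and Kcnk12, which did not pass, lie farthest right.

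The order of group means was uneven as well. The CCI ipsilateral mean was the lowest of the 4 for 49 of 76 genes (64.5%, beside 34.9% of all genes tested). The sham ipsilateral mean was the highest for 39 genes (51.3%, beside 28.5%). For Kcna1, Kcnj11 and Kcnk12 the sham ipsilateral libraries stood high while the struck side overlapped both contralateral groups. When both sham groups served as the reference, 37 genes were called (33 down, 4 up), 33 of them among the 35, and the share of all genes called was 28.4%.

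Companion genes of potassium channels and potassium transport were read from the same fits (35 listed, 32 tested). Against sham ipsilateral, 10 of the 32 fell and 7 rose, where 10.0% of all genes tested fell and 12.5% rose (22.5% called). Among the falling ones, the neuronal potassium-chloride exporter Slc12a5 was -0.33 ± 0.06 (edgeR adjusted p = 0.000303), the Kcnj11 partner Abcc8 -0.41 ± 0.11 (adjusted p = 0.00719), the axonal anchor Ank3 -0.34 ± 0.06 (adjusted p = 0.00015) and the Kcna-associated secreted protein Lgi1 -0.32 ± 0.06 (adjusted p = 0.00024). Atp1b1, Fxyd7 and Dlg4 also fell. The rising ones were the pump regulator Fxyd1 (1.55 ± 0.17, adjusted p = 1.14e-07), Aqp4, the astrocytic gap junction genes Gja1 (0.75 ± 0.08, adjusted p = 8.28e-08) and Gjb6, the pump subunits Atp1b2 and Atp1b3, and Slc12a7.

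In the authors' deposited table, DESeq2 values put 4 of the genes higher and 22 lower at a Benjamini-Hochberg p under 0.05 in CCI against sham ipsilateral, where it has 9.79% of all genes higher and 6.65% lower. Of these 26 genes, 21 are among the 35 called with edgeR, and 5 are called in the authors' deposited table alone: Kcnh1, Kcnh5, Kcnk13, Kcnmb4 and Kcnn2. By the DESeq2 values of the authors' deposited table Kcnk13 is higher (log2 estimate 0.61, Benjamini-Hochberg adjusted p = 0.0356), while Kcnj16 is not called (0.28, adjusted p = 0.174). The authors' deposited table also does not call Kcnv1 (-0.35, DESeq2 adjusted p = 0.366), Kcnj9 (-0.10, adjusted p = 0.747) or Kcnip2 (-0.13, adjusted p = 0.542) there. All of them passed in the edgeR fit and under each alternative setting, DESeq2 among them, tried on the deposited counts and TPM values. The estimates differ as well, with -0.78 for Kcnv1 in the edgeR fit. The headers of the authors' comparisons name time beside treatment and hemisphere, and which libraries entered their fit was not checked. The cause of these differences was not tested. In ipsilateral against contralateral of CCI mice the authors' deposited table has 2 higher and 9 lower, beside 6.28% and 1.95% of all genes, and the 11 are among the 33 called with edgeR. Kcnv1 is not called there in the authors' deposited table (-0.70, adjusted p = 0.055). In the other comparisons the authors' deposited table calls 0 of the potassium channel genes. Beside this it calls 0.201% of all genes in CCI against sham contralateral and 0.0037% between the hemispheres of sham mice.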

How the data were processed

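Polyadenylated RNA of perfused hemispheres was made into stranded libraries, per the labels' protocols. The authors deposited expected counts per gene (RSEM, mouse GRCm38, per the submitters' processing notes), TPM values scaled for gene length (RSEM, per the same notes) and a table of their own comparisons. Per the file headers, the latter holds the authors' DESeq2 log2 fold changes, a signed fold change (a score that is negative where a gene was lower), and each p-value, raw and with Benjamini-Hochberg adjustment. The aligner, and whether counting used strand, were not stated in the sources used.

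Expected counts were rounded (9.76% of values were not whole) and tested with edgeR 4.0.16 in R 4.3.3: TMM scaling, the filterByExpr filter, 1 mean per group over all 13 libraries, the robust quasi-likelihood test and Benjamini-Hochberg adjustment over 14875 genes. An adjusted p under 0.05 was called, rose and fell refer to called genes, and log2 fold changes carry their SE. CPM values are scaled by TMM factors and ± marks the SD there. DESeq2 1.42.0 and limma 3.58.1 (voom with the animal as a random effect, and log2(TPM + pseudocount)) served as alternatives. The fit was tested on simulated data.

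Both hemispheres of a mouse bear the same animal number in the labels, so numbers pair the libraries by animal. Residual correlations of the 6 pairs were 0.00348 to 0.0882, against -0.0966 to 0.0966 over 56 pairs of different animals. Each group consists of separate animals.

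The potassium channel genes, marker lists and companion genes were chosen with earlier results of these data known. Genes were named by a rule: those called in any comparison (with over 30 calls in CCI against sham ipsilateral, the 15 of largest change each way there), the 5 of highest mean TPM, and a list of members of known role. A few genes are not reported here by name and stay in the counts. Kcna4, Kcna6, Kcnh1, Kcnj1, Kcnn1 and Kcnrg lie outside the naming rule. The text names them only to complete a class, a list or a statement on detection. The members that share exon bases with another gene were counted as deposited. Depth per library limits scarce genes, and a gene under the filter was not tested.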

Additional observations from a re-analysis of the deposited data

Results flagged for a closer look

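In 17 genes the difference between hemispheres was itself different in CCI and sham mice (edgeR interaction, 4 and 4 against 2 and 3 libraries). The negative ones on the log2 scale included Kcnv1 (-0.89, adjusted p = 1.33e-05), Kcnh7 (-0.67, 0.0382), Kcnab1 (-0.60, 5.64e-05), Kcnab3 (-0.59, 0.000829), Kcnj3 (-0.57, 0.0007) and Kcnq3 (-0.48, 0.00639). Smaller negative differences included those of Kcnj9 (-0.42, edgeR adjusted p = 0.0111), Kcnc2 (-0.41, 0.0172), Kcnab2 (-0.35, 0.00574), Kcnq5 (-0.34, 0.0485), Kcnd2 (-0.32, 0.0261), Kcnk1 (-0.32, 0.0228), Kcnip2 (-0.31, 0.0279), Kcna2 (-0.29, 0.0358) and Kcnc1 (-0.29, 0.0198). Kcnj10 was positive (0.36, 0.0219). Of the 17 calls, 6 passed in each of the 13 fits that left out a library. Kcnq5 was lost in 9 of these fits and under 6 of the 10 other settings, Kcnh7 and Kcnip2 in 8 fits, Kcna2 in 7, Kcnj10 in 5, Kcnd2 and Kcnk1 in 4, Kcnc1 in 3, Kcnc2 in 2, and Kcnq3 and Kcnj9 in 1.

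A single library stood far from the others of its group in 4 of 108 gene and group combinations of 4 libraries, where chance gives about 1 in 20. Kcna3 was lowest in CCI ipsilateral animal 1, at 7.11 CPM against 8.349 to 8.472. Kcnb2 was highest in CCI contralateral animal 2, at 45.3 CPM against 30.76 to 33.11. Kcnj16 was lowest in CCI ipsilateral animal 3, at 37.0 CPM against 41.08 to 41.86. Kcnmb4 was lowest in CCI contralateral animal 3, at 31.8 CPM against 37.03 to 37.71.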

How the results depend on the processing

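No call on a named gene reversed its direction under any alternative tried. The count for CCI against sham ipsilateral (35) ran from 20 to 38 when 1 library was left out, with 20 without sham ipsilateral animal 6, 19 of them among the 35. The ipsilateral against contralateral count of CCI mice (33) ran from 26 to 35, and the interaction count (17) from 7 to 19. The interaction gave 7 without sham ipsilateral animal 6, 10 without sham contralateral animal 4 and 10 without sham contralateral animal 8, and 11 without CCI ipsilateral animal 5. On log2(TPM + 1), log2(TPM + 0.1) and log2(TPM + 1) with no filter, limma called 26, 25 and 24 genes in CCI against sham ipsilateral (beside 14.7%, 14.6% and 9.04% of all genes), 20, 19 and 16 between the hemispheres of CCI mice (13.3%, 12.7% and 7.86%) and 5, 5 and 4 in the interaction (4.22%, 3.63% and 2.18%). The cause was not tested. The counts for CCI against sham contralateral and for the hemispheres of sham mice were 0 under every setting and left-out library tried, beside at most 0.433% of all genes. With the animal as a replicate block the hemispheres gave 36 calls in CCI mice (beside 25.5% of all genes) and 0 in sham mice (0.0336%). The interaction gave 19 (9.03%), and the block changed no call beyond those named beside these comparisons. The reference of both sham groups was added after seeing the data. Depth limits the scarce genes Kcng3, Kcnk12 and Kcnn4.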
